A study of Mus musculus with 36 samples.

Results

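Liver sinusoidal endothelial cells (LSECs), the perforated endothelium that lines the capillaries of the liver, were compared at 36 h and at 12 h after diphtheria toxin (DT) was injected. The comparison rests on 8 bulk RNA sequencing libraries, 4 labelled 36 h and 4 labelled 12 h, of 36 libraries in all, and was chosen by these labels alone. The 36 h and 12 h libraries came from livers of C57BL/6 mice taken at those times after Kupffer cell depletion by DT. The 4 WT libraries came from LSECs of C57BL/6 mice that the series design gives as PBS-treated. Hepatic stellate cells (HSCs), the vitamin A-storing cells beside the sinusoid, had 4 libraries at each of the same times and serve below as the cells set beside LSECs. The labels give no genotype. In the published Kupffer cell depletion model the DT receptor is placed under the Clec4f gene of Kupffer cells, and no group used here was given the toxin with Kupffer cells intact. Whether each library came from 1 mouse is not given, so p-values measure the spread between these libraries, which may be technical in part.

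LSECs form a filter and a scavenging surface at once. Their stabilin, mannose and C-type lectin receptors take up waste from portal blood, and their ligands, among them Wnt2, Csf1, Gas6 and the Notch ligands, act on the hepatocytes, stellate cells and macrophages next to them. In inflammation they display selectins, VCAM-1, ICAM-1 and chemokines that slow and admit blood leukocytes, which after loss of Kupffer cells include the monocytes that refill the macrophage niche.

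Each LSEC library held 25404719 to 29719266 gene counts at 36 h, 26237037 to 29386252 at 12 h and 27456753 to 30090527 in WT. The 8 LSEC-defining markers summed to 26740 to 30650 CPM (counts of a gene scaled to a library of 1000000) at 36 h, 21670 to 26350 CPM at 12 h and 28360 to 31610 CPM in WT, so the label held in every library. Summed markers of the other cell types below were far lower. A list of 14 genes of other endothelium summed to 2078.96 to 2414.08 CPM at 36 h, 1728.87 to 3212.93 CPM at 12 h and 1664.65 to 2113.94 CPM in WT. Its highest sum belonged to 12 h replicate 3, and the part of other endothelial cells in these libraries was not tested. The 11 Kupffer cell markers reached 3.115 to 35.32 CPM at 36 h, 9.203 to 22.67 CPM at 12 h and 20.26 to 42.44 CPM in WT. Markers of hepatocytes (5 genes) reached 51.51 to 373.8 CPM at 36 h, 69.84 to 142.7 CPM at 12 h and 35.72 to 152.5 CPM in WT. Markers of stellate cells (6 genes) reached 8.935 to 229.4 CPM at 36 h, 7.306 to 36.5 CPM at 12 h and 8.218 to 11.08 CPM in WT. The highest hepatocyte and stellate sums both belonged to 36 h replicate 4, which also lay apart on the second principal component (a score of -63.3, against -23.6 to 17.3 in the other libraries but WT replicate 2 at 37.1). Stellate sums also exceeded every WT library in 36 h replicates 2 and 3 (37.8 and 25.43 CPM) and 12 h replicates 1, 3 and 4. A longer stellate list had 13 tested genes. Against WT at 36 h its median log2 change was 2.74, with 11 at an unadjusted p under 0.05 (10.5% of all genes) and 0 called by edgeR. Against 12 h the median was 1.86, with 9 at such a p (34.8% of all genes), 1 called higher and 1 lower. Results that move without a library are given beside their values. Markers of monocytes and neutrophils (8 genes) summed to 14.15 to 30.15 CPM at 36 h, 12.69 to 45.05 CPM at 12 h and 7.75 to 12.08 CPM in WT. Among 9 Kupffer cell markers that passed the filter on low counts, Cd5l alone differed between the times. It stood at 0.271, 0.138, 1.49 and 6.25 CPM in the 36 h libraries (replicates 1 to 4 here and below) and 0.0344, 0.188, 0 and 0 CPM in the 12 h libraries. The 36 h values are mostly those of replicates 3 and 4, and the WT libraries had 4.63, 3.92, 6.35 and 11.1 CPM. In these bulk libraries, more cells of a type and more RNA per cell cannot be told apart, here or for any level below. The rise in Cd5l lost its call when 36 h replicate 4 and 12 h replicate 3 were both left out (adjusted p = 0.0716). Against WT, edgeR called 5 of the 9 Kupffer cell markers lower at 12 h (8.5% of all genes) and 0 at 36 h. At 36 h their median log2 change over WT was -1.43, and 3 had all libraries below all WT libraries (3.28% of all genes). DESeq2 called Vsig4 lower at 36 h than in WT (log2 change -3.93, adjusted p = 5.08e-06).

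**Figure D1:**
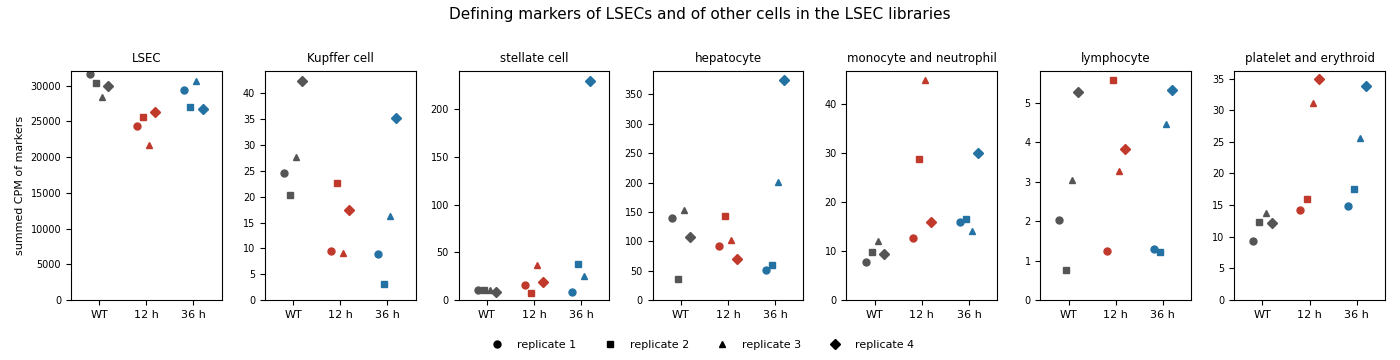
Summed CPM (y axis, linear, from 0) of the defining markers of LSECs and of 6 other cell types in each LSEC library, by group (x axis). LSEC markers reach at least 21670 CPM in every library, and 36 h replicate 4 (diamond) has the highest stellate cell (229.4 CPM) and hepatocyte (373.8 CPM) sums.

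Of 12286 genes tested, 1299 were higher at 36 h than at 12 h (10.6%) and 1324 were lower (10.8%), by the quasi-likelihood test of edgeR at an adjusted p (Benjamini-Hochberg) under 0.05. Of these, 383 rose and 321 fell by at least 2-fold, and the median log2 change over all tested genes was 0.015. Without 36 h replicate 3 the number of genes that fell was 858. In 1432 genes (11.7%) all 36 h libraries lay above all 12 h libraries, and in 1283 (10.4%) they lay below. Between 36 h and WT, edgeR called 0 genes in either direction, while 1288 genes (10.5%) had an unadjusted p under 0.05 and DESeq2 called 87 higher and 22 lower. Between 12 h and WT, 1197 genes were higher (9.74%) and 1044 lower (8.5%), the second number being 671 without WT replicate 4. The 36 h to 12 h and the 12 h to WT comparisons share the 12 h libraries, and the 2 comparisons with WT share the WT libraries, so their values are set side by side below and not related to each other. A gene without a call between 36 h and WT is not shown to have the WT level. In the lists below, counts of 0 to 2 members moved by up to 3 as single libraries were left out, except in the antiviral list, and only larger counts are followed library by library. Shares of list members that rose or fell between the times stand beside the 10.6% and 10.8% of all genes. Some lists share members, so their counts are not independent. Cd34, for example, is in the adhesion, portal zonation and fenestration lists, and Steap4 in the acute phase and iron lists.

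The 12 largest rises that met the rule for naming genes were Ccbe1, Klhdc8a, Gna14, Sec31b, Pask, Magix, Gpr155, Cdkn1c, Chst8, Tmem35, Prelp and Adck3, with log2 changes of 2.04 to 3.65. Ccbe1, a secreted factor needed to activate the lymphatic growth factor VEGF-C, had 9.48, 6.68, 6.09 and 3.76 CPM at 36 h and 0.653, 0.226, 0.517 and 0.662 CPM at 12 h. All 36 h values lay above all 12 h values and overlapped the WT values of 5.65, 2.74, 4.19 and 1.57 CPM (log2 change 36 h over 12 h 3.65 ± 0.45, SE, adjusted p = 0.000278). Gpr155, a membrane protein that senses cholesterol at the lysosome, had 418, 338, 358 and 212 CPM at 36 h and 56.9, 76.9, 45.6 and 92.2 CPM at 12 h, against 346, 229, 291 and 307 CPM in WT (log2 change 2.29 ± 0.24, adjusted p = 0.000131). Cdkn1c, the cyclin-dependent kinase inhibitor p57, had 177, 158, 140.4 and 86.2 CPM at 36 h and 19.6, 38.9, 22.3 and 35.6 CPM at 12 h, with WT libraries at 163, 91.7, 100.1 and 87.6 CPM (log2 change 2.27 ± 0.28, adjusted p = 0.000278). In these 3 genes the 12 h libraries were the low ones, and the 36 h libraries overlapped the WT libraries. Prelp, a leucine-rich proteoglycan of the matrix, averaged 445 ± 89.7 CPM at 36 h and 105 ± 30 CPM at 12 h (SD, n = 4 each), with 345 ± 69 CPM in WT (log2 change 2.08 ± 0.22).

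The 12 largest falls were Ch25h, Cxcl2, Prf1, Psg22, Tnfrsf9, Angptl4, Uchl1, Sele, Timp1, Myc, Olr1 and Cxcl1, with log2 changes of -4.65 to -3.62. Ch25h, the enzyme that makes 25-hydroxycholesterol, had 0.541, 1.63, 1.05 and 2.64 CPM at 36 h and 57.9, 13.3, 53.9 and 21.4 CPM at 12 h. Every 36 h library lay below every 12 h library and the 36 h and WT values (1.16, 2.06, 0.884 and 1.53 CPM) overlapped (log2 change -4.65 ± 0.54, adjusted p = 0.000178). Tnfrsf9, the costimulatory receptor 4-1BB, had 1.25, 0.762, 1.02 and 3.53 CPM at 36 h and 16.2, 8.66, 77.3 and 19 CPM at 12 h, the highest in replicate 3 (log2 change -4.21 ± 0.69, adjusted p = 0.00129). The WT libraries held 0.14, 0.571, 0.393 and 0.107 CPM, all below the 36 h libraries. Olr1, the scavenger receptor LOX-1 for oxidised lipoprotein, had 1.29, 0.138, 2.84 and 2.12 CPM at 36 h and 39.7, 16.9, 18.6 and 7.63 CPM at 12 h (log2 change -3.70 ± 0.60, adjusted p = 0.00118). Its 36 h libraries all lay below the 12 h libraries.

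**Figure D2:**
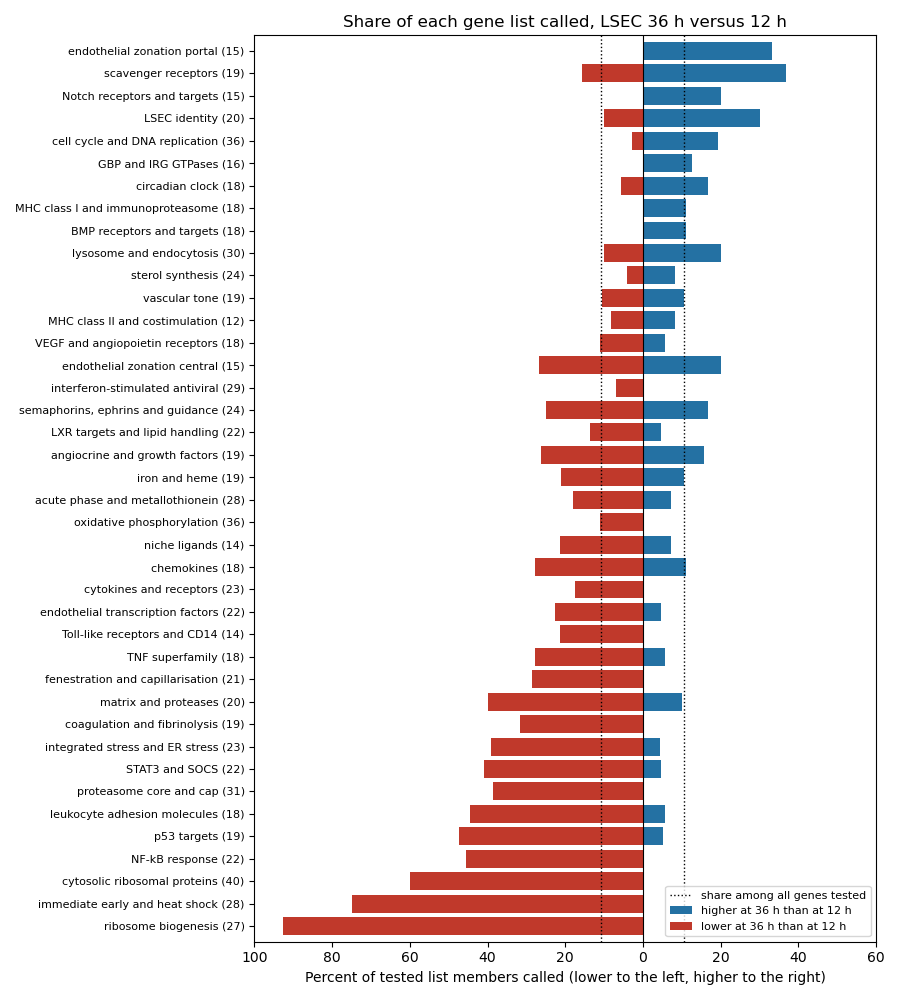
Share of tested members of each gene list (rows, in %) called higher at 36 h than at 12 h (right of 0) and lower (left of 0), with the shares among all genes tested (10.6% and 10.8%) as dotted lines. Ribosome biogenesis (25 of 27 lower) and immediate early and heat shock genes (21 of 28 lower) have the longest bars to the left, and scavenger receptors (7 of 19 higher) one of the longest to the right.

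More scavenging and identity genes of LSECs rose than fell at 36 h relative to 12 h. Of 19 scavenger receptors tested, 7 rose and 3 fell (36.8% and 15.8%, beside 10.6% and 10.8% of all genes), with a median log2 change of 0.37 beside 0.015 over all genes. Of 20 LSEC identity genes, 6 rose and 2 fell (30% and 10%), with a median of 0.25. Ehd3, a membrane-remodelling protein of endocytosis that marks LSECs, had 9012, 11599, 9561 and 7125 CPM at 36 h and 4341, 5949, 3301 and 5214 CPM at 12 h. The times did not overlap, and the WT libraries (9092, 9840.3, 9693 and 10541 CPM) lay within the 36 h range (log2 change 0.99 ± 0.18, adjusted p = 0.00192). Mrc1, the mannose receptor that clears glycoproteins from blood, had 2868, 2656, 2839 and 1936 CPM at 36 h and 1842, 1675, 1110.0 and 1642 CPM at 12 h (log2 change 0.72 ± 0.16, adjusted p = 0.00613). The 36 h libraries lay above the 12 h libraries, with replicate 4 the lowest, and all 4 lay below the WT libraries at 3211, 3152, 2982 and 2916 CPM (log2 change 36 h over WT -0.25 ± 0.16, unadjusted p = 0.131, not called). Dnase1l3, a secreted nuclease that degrades DNA in circulation, had 2252, 2005, 2387 and 2089 CPM at 36 h, 1362, 1528, 1455 and 1468 CPM at 12 h and 2228, 2150.1, 2278 and 2302 CPM in WT (log2 change 36 h over 12 h 0.59 ± 0.09, adjusted p = 0.000811). Here the 36 h libraries enclosed the WT libraries and did not overlap the 12 h libraries.

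The lectin Clec4g (LSECtin) had 5908, 6081, 6184 and 5784 CPM at 36 h and 4087, 4561, 3492 and 5116 CPM at 12 h (log2 change 0.47 ± 0.11, adjusted p = 0.00949). The 36 h libraries were above every 12 h library and also above every WT library (5424, 4825, 5188 and 5249 CPM), without a call against WT (unadjusted p = 0.0805). Cd209b, a pathogen-binding lectin of the DC-SIGN family, had 91.1, 83.3, 71.5 and 59.6 CPM at 36 h and 32.8, 33.1, 38.8 and 37.2 CPM at 12 h (log2 change 1.11 ± 0.13, adjusted p = 0.000178), and its 36 h libraries lay above all 12 h libraries and overlapped WT at 61.7, 56.3, 54.7 and 51.7 CPM. The stabilins, which take up hyaluronan and modified proteins, did not pass the test. Stab2 had 4818, 4147, 5113 and 3848 CPM at 36 h, 4638, 4913, 2796 and 3967 CPM at 12 h and 6298, 6177, 4716 and 5197 CPM in WT, a log2 change 36 h over 12 h of 0.14 ± 0.17 (adjusted p = 0.606) and 36 h over WT of -0.32 ± 0.17 (unadjusted p = 0.0766). The libraries of all 3 groups overlapped, 12 h replicate 3 being the lowest. Stab1 had log2 changes of 0.28 ± 0.12 36 h over 12 h (adjusted p = 0.125) and -0.031 ± 0.12 36 h over WT.

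The hyaluronan receptor Lyve1 went the other way and fell. It had 486, 532, 606 and 477 CPM at 36 h, 1165, 916, 2234 and 1694 CPM at 12 h and 488, 574, 481 and 491 CPM in WT (log2 change 36 h over 12 h -1.52 ± 0.22, adjusted p = 0.00058). The 36 h libraries lay below all 12 h libraries and overlapped the WT libraries. Scarf1, a receptor for modified lipoproteins and apoptotic cells, also fell (log2 change -0.44 ± 0.09, adjusted p = 0.00395). Among 22 transcription factors of endothelium 5 fell (22.7%) and Spic, an ETS factor of red pulp macrophages, rose (log2 change 1.42 ± 0.42, adjusted p = 0.0292). The rise of Spic, a gene of low counts here, lost its call without any 1 of 12 h replicates 1, 3 or 4 or 36 h replicates 1 or 3 (adjusted p 0.0668 to 0.107). Irf8, an interferon regulatory factor, averaged 139.8 ± 15.2 CPM at 36 h and 297 ± 30.8 CPM at 12 h (SD, n = 4 each) and 117 ± 19.3 CPM in WT (log2 change 36 h over 12 h -1.09 ± 0.13, adjusted p = 0.000213). Fli1, an ETS factor of endothelium, fell as well (log2 change -0.65 ± 0.12, adjusted p = 0.00275). Gata4, the factor that keeps LSECs from a continuous-capillary state in mice, did not pass the test (log2 change 0.24 ± 0.14, adjusted p = 0.234), nor did Ets1 (-0.10 ± 0.10, adjusted p = 0.489). The junction protein Pecam1 had 990.3 ± 67.2 CPM at 36 h and 1052 ± 63.1 CPM at 12 h (adjusted p = 0.559).

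Ligands for neighbouring cells moved in both directions. Of 14 niche ligands for macrophages 1 rose and 3 fell (7.14% and 21.4%). Of 19 angiocrine and growth factors 3 rose and 5 fell (15.8% and 26.3%). The counts are small, and those of falls depended on single libraries. Without 12 h replicate 1 or 36 h replicate 3 no niche ligand fell, without 36 h replicate 1 or 2 there was 1, and the angiocrine falls numbered 3 without 12 h replicate 1 or 36 h replicate 3. Gas6, the ligand of the TAM receptors Axl and Mertk by which macrophages recognise dying cells, rose. It had 690.4, 648, 677 and 482 CPM at 36 h and 359.7, 408, 173 and 275 CPM at 12 h (log2 change 1.04 ± 0.22, adjusted p = 0.00511), with no overlap, and 745, 791, 562 and 658 CPM in WT. Wnt2, the endothelial Wnt that patterns hepatocytes around the central vein, had 344, 443, 423 and 318 CPM at 36 h and 217, 256, 138 and 292 CPM at 12 h (log2 change 0.76 ± 0.20, adjusted p = 0.0169). Its 36 h libraries all exceeded its 12 h libraries and overlapped WT (372, 388, 273 and 386 CPM), and without 36 h replicate 3 the adjusted p was 0.0503. Pdgfd, a platelet-derived growth factor, rose (log2 change 1.11 ± 0.15, adjusted p = 0.000472), whereas Pdgfa, of the same family, fell (-1.96 ± 0.27, adjusted p = 0.000453).

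Csf1, the growth factor on which macrophages depend, fell. It had 544, 441, 379 and 469 CPM at 36 h and 861, 650.4, 777 and 523 CPM at 12 h, with overlap between replicate 1 at 36 h and replicate 4 at 12 h (log2 change -0.62 ± 0.16, adjusted p = 0.0172). All 36 h libraries still lay above all WT libraries, which had 349.5, 330.4, 267 and 255 CPM (log2 change 36 h over WT 0.61 ± 0.16, unadjusted p = 0.00251, not called by edgeR and called higher by DESeq2). The fall in Csf1 lost its call without 12 h replicate 1 (adjusted p = 0.0549) or without 36 h replicate 3 (0.0591). Hgf, the hepatocyte growth factor, averaged 96.6 ± 21.7 CPM at 36 h and 208 ± 42 CPM at 12 h (log2 change -1.11 ± 0.30, adjusted p = 0.0188), and its adjusted p was 0.0511 without 12 h replicate 4 and 0.0587 without 36 h replicate 3. Bmp2 and Bmp6, endothelial ligands that set hepcidin and so iron balance, gave log2 changes of -0.16 ± 0.22 and 0.041 ± 0.20 (adjusted p = 0.643 and 0.91). Dll4, a Notch ligand, had 457, 431, 412 and 550.0 CPM at 36 h and 401, 401, 573 and 463 CPM at 12 h (log2 change 0.0093 ± 0.15, adjusted p = 0.974), and the times overlapped in all 3 of these genes. Dll1, a second Notch ligand, had 43.5, 39.9, 41.4 and 48.2 CPM at 36 h and 79.9, 70.4, 49.4 and 66.6 CPM at 12 h (log2 change -0.62 ± 0.21, adjusted p = 0.0452). No 36 h library reached a 12 h library, but the call was lost without any 1 of 12 h replicates 1, 2 or 4, of the 36 h libraries or of WT replicate 2 (adjusted p 0.0508 to 0.124). Rspo3, the Wnt enhancer of central endothelium, did not pass the test (-0.54 ± 0.60, adjusted p = 0.568). Tgfb1 did not pass the test (log2 change -0.28 ± 0.13, adjusted p = 0.132).

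Of 15 Notch receptors and targets 3 rose (20%) and none fell. Hey1, a Notch target in arterial and portal endothelium, had 4.87, 4.64, 4.91 and 3.61 CPM at 36 h and 1.31, 1.62, 1.65 and 1.44 CPM at 12 h, without overlap, and 5.75, 2.86, 7.43 and 2.77 CPM in WT (log2 change 36 h over 12 h 1.58 ± 0.31, adjusted p = 0.00344). Hes1, another target, did not pass the test (log2 change -0.22 ± 0.26, adjusted p = 0.583). The receptor Notch4 lay at 174, 179, 177 and 227 CPM at 36 h, 203, 206, 202 and 194 CPM at 12 h and 252, 239, 226 and 230.5 CPM in WT, with log2 changes of -0.089 ± 0.10 36 h over 12 h (adjusted p = 0.56) and -0.32 ± 0.10 36 h over WT (unadjusted p = 0.00565). The 36 h replicates 1 to 3 lay below every 12 h and WT library, and replicate 4 lay above all 12 h libraries. Of 18 BMP receptors and targets 2 rose and none fell, and 11.1% lies near the 10.6% of all genes that rose. They were Eng, the co-receptor endoglin, and Id3, a SMAD target. Eng had 4417, 4074, 5367 and 4752 CPM at 36 h and 2399, 3323, 2663 and 3137 CPM at 12 h (log2 change 0.69 ± 0.12, adjusted p = 0.00176), and its 36 h libraries lay above all 12 h libraries and overlapped WT (4490.0, 4305, 4414 and 4097 CPM). Id1 did not pass the test (log2 change -0.40 ± 0.26, adjusted p = 0.293).

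Genes of the portal end of the sinusoid included rises and no falls. Of 15 portal zonation genes 5 rose and none fell (33.3% higher), with a median log2 change of 0.37, and 3 rose without any 1 of 12 h replicates 1 or 2 or 36 h replicates 1 or 3. Of 15 central zonation genes 3 rose and 4 fell (20% and 26.7%). Ntn4, a laminin-related netrin, averaged 825 ± 166 CPM at 36 h and 417 ± 128 CPM at 12 h (log2 change 0.99 ± 0.23, adjusted p = 0.00856). Ecm1, a matrix protein that restrains latent TGF-beta in liver, averaged 386 ± 80.8 CPM at 36 h and 174 ± 40.3 CPM at 12 h (log2 change 1.15 ± 0.17, adjusted p = 0.000719). Its highest library was 36 h replicate 4 at 503 CPM, the one with the most stellate cell markers, and HSCs held 18739 to 32428 CPM of Ecm1 at 36 h, and the part of HSC RNA in this value was not tested. The call held when 36 h replicate 4 and 12 h replicate 3 were both left out. Ltbp4, a portal gene that binds latent TGF-beta, did not pass the test between the times. It had 4357, 4089.7, 3708 and 3034 CPM at 36 h, 3943, 4561, 2505 and 3083 CPM at 12 h and 7110.4, 5179, 5817 and 5385 CPM in WT. Against WT every 36 h library was lower (3.28% of all genes tested lie so), and against 12 h they overlapped, with log2 changes of 0.11 ± 0.18 36 h over 12 h (adjusted p = 0.709), -0.63 ± 0.18 36 h over WT (unadjusted p = 0.00358, not called) and -0.74 ± 0.18 12 h over WT (adjusted p = 0.0126). In the central group the receptor tyrosine kinase Kit fell, with 465, 418, 544 and 469 CPM at 36 h and 1299.7, 950.3, 997 and 1314 CPM at 12 h (log2 change -1.27 ± 0.18, adjusted p = 0.000541).

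Many genes for admitting leukocytes fell. Of 18 leukocyte adhesion molecules 8 fell and 1 rose (44.4% lower). Of 18 chemokines and decoy receptors 5 fell and 2 rose (27.8% and 11.1%), with a median log2 change of -1.01. The chemokine falls numbered 3 without 12 h replicate 1 and 8 without 36 h replicate 4. At 36 h against WT the chemokine list had a median log2 change of 1.03. In it 8 of 18 had an unadjusted p under 0.05 in edgeR (10.5% of all genes). The adhesion list had a median of 0.059 and 2 of 18. edgeR called 0 of either list against WT, and DESeq2 called 0 chemokines and 2 adhesion genes higher. Vcam1, the integrin ligand that holds monocytes, had 249, 219.6, 179 and 312 CPM at 36 h and 954, 375, 755 and 361 CPM at 12 h, with no overlap (log2 change -1.35 ± 0.28, adjusted p = 0.00459). Its WT libraries had 196, 153, 149 and 160.1 CPM. Sele, E-selectin, on which leukocytes roll, had 2.34, 0.831, 1.66 and 9.63 CPM at 36 h and 141, 16.9, 31.8 and 24.7 CPM at 12 h, the highest in replicate 1 (log2 change -3.90 ± 0.79, adjusted p = 0.00391). Selp, P-selectin, had 2.91, 2.32, 3.15 and 6.43 CPM at 36 h and 68.5, 19.2, 17.4 and 9.31 CPM at 12 h (log2 change -2.95 ± 0.59, adjusted p = 0.00376), and in both selectins all 36 h libraries lay below all 12 h libraries. Icam1 averaged 279 ± 49.3 CPM at 36 h and 561 ± 300.2 CPM at 12 h (log2 change -1.01 ± 0.28, adjusted p = 0.0202), and its adjusted p was 0.0536 without 36 h replicate 2 and 0.0609 without 36 h replicate 3. The junctional molecules Jam2 and Icam2 fell by less, with log2 changes of -0.96 ± 0.12 and -0.58 ± 0.11 (adjusted p = 0.000359 and 0.0031), and the member that rose was Cd99l2 (0.67 ± 0.09, adjusted p = 0.000523).

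Ccl2, the chemokine that draws CCR2-bearing monocytes, had 1.52, 2.08, 2.37 and 16 CPM at 36 h and 157, 27.5, 62.4 and 21.3 CPM at 12 h. The times did not overlap, replicate 4 being high at 36 h, and the WT libraries had 0.772, 1.6, 1.11 and 0.996 CPM (log2 change 36 h over 12 h -3.62 ± 0.77, adjusted p = 0.00521). Cxcl1, a neutrophil chemokine, had 4.67, 2.53, 1.32 and 5.73 CPM at 36 h and 109, 13, 18 and 35.8 CPM at 12 h (log2 change -3.62 ± 0.74, adjusted p = 0.0042). Its relative Cxcl2 had 0.44, 0.208, 0.0339 and 0.409 CPM at 36 h and 17, 0.942, 1.9 and 3.08 CPM at 12 h (log2 change -4.38 ± 1.10, adjusted p = 0.0126), and without 12 h replicate 1 the adjusted p of Cxcl2 was 0.0638. In both, 12 h replicate 1 was the highest library and the times did not overlap. The members that rose were the decoy receptors Ackr4 and Ackr2, which remove chemokines, with log2 changes of 1.67 ± 0.29 and 0.57 ± 0.11 (adjusted p = 0.00167 and 0.00283). The chemokines of the interferon type are given with that group below.

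Of 22 genes of the NF-kB response 10 fell and none rose (45.5% lower), with a median log2 change of -0.50. The count was 5 without 12 h replicate 1 and 4 without 36 h replicate 2 or 3. Tnfaip3, the A20 protein that limits NF-kB signalling, had 38.5, 36.9, 30.1 and 47.6 CPM at 36 h and 239, 61.9, 72.2 and 77.8 CPM at 12 h, with no overlap (log2 change -1.56 ± 0.36, adjusted p = 0.0081). Its WT libraries had 34.4, 30.1, 23.5 and 23.2 CPM. Sod2, the mitochondrial superoxide dismutase, averaged 50.4 ± 4.89 CPM at 36 h and 74.4 ± 8.9 CPM at 12 h (log2 change -0.56 ± 0.11, adjusted p = 0.00335). The subunit Nfkb1 did not pass the test (log2 change 0.098 ± 0.12, adjusted p = 0.608). Of 22 genes of STAT3 signalling 9 fell and 1 rose (40.9% and 4.55%). The falls numbered 5 without any 1 of 12 h replicates 1 or 4 or 36 h replicates 1, 2 or 4. Il4ra and Il1r1, receptors for interleukin-4 and interleukin-1, fell (log2 change -1.04 ± 0.18 and -0.95 ± 0.18, adjusted p = 0.00149 and 0.0031).

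Promoter windows are printed for 3 genes of this group because each holds the letters of an NF-kB site and each fell at 36 h. The windows run from 250 bases before to 50 bases after the RefSeq start on GRCm38.p6, 5′ to 3′ on the gene's strand, with matches in capitals. The NF-kB motif was searched on both strands with 2 free positions inside it, and no match of another motif searched overlapped those printed. It was found in 1.63% of all 32851 windows, in 2.13% of those of tested genes, in 4 of 12 chemokine windows (33.3%) and in 5 of 17 windows of the NF-kB list (29.4%). Cxcl1 lies at chr5:90890995-90891294 on the plus strand and holds 2 matches. Cxcl2 lies at chr5:90903649-90903948 on the plus strand and also holds 2. Tnfaip3 lies at chr10:19015361-19015660 on the minus strand and holds 1.
Cxcl1: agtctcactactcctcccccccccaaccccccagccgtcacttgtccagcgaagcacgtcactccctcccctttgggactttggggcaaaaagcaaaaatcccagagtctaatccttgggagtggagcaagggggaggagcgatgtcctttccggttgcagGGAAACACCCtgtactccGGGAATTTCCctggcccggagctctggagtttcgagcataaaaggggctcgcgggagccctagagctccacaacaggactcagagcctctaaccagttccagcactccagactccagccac
Cxcl2: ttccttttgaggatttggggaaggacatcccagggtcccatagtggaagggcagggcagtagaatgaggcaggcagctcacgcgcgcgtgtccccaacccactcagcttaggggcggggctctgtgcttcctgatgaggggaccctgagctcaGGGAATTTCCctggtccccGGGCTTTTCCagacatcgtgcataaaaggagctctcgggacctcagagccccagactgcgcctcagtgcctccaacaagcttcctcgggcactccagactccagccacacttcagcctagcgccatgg
Tnfaip3: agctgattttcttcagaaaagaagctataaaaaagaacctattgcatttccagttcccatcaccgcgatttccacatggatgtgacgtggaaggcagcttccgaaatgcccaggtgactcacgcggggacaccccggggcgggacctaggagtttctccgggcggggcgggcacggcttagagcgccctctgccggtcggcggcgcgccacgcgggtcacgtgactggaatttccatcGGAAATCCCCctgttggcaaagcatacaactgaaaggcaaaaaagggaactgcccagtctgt
A match in these letters is a description of the sequence and shows no binding.

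Among the lists, the genes for building ribosomes had the largest share of falls. Of 27 ribosome biogenesis genes 25 fell and none rose (92.6% lower, beside 10.8% of all genes), with a median log2 change of -0.996. In all 25 the 36 h libraries lay below the 12 h libraries, and the median 36 h over WT was -0.077. Fbl, fibrillarin, the methyltransferase of small nucleolar RNPs, had 25.6, 26.4, 27.2 and 38 CPM at 36 h, 97.4, 71.9, 73.9 and 57 CPM at 12 h and 30.9, 35, 28.8 and 31.8 CPM in WT (log2 change 36 h over 12 h -1.36 ± 0.16, adjusted p = 0.000232). Polr1a, the largest subunit of RNA polymerase I, had 12.4, 12.3, 13.4 and 15 CPM at 36 h and 55.1, 38.2, 33.7 and 27.2 CPM at 12 h (log2 change -1.54 ± 0.21, adjusted p = 0.000467). In both, replicate 4 was the highest 36 h library and the lowest 12 h library, and the times did not overlap. Of 40 cytosolic ribosomal proteins 24 fell and none rose (60% lower), with a median of -0.46. Without any 1 of 12 h replicate 3 or 36 h replicates 2 or 3, 13 or 14 fell. Rpl5 averaged 74.5 ± 3.6 CPM at 36 h and 123 ± 18.4 CPM at 12 h (log2 change -0.73 ± 0.10, adjusted p = 0.00057). Ribosomal protein genes have near-identical processed copies, among which the counting could have split reads.

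Myc, the growth factor-induced regulator of ribosome production, had 14.3, 15.7, 8.53 and 28.4 CPM at 36 h and 441, 78.3, 151 and 237 CPM at 12 h, with no overlap, and 9.29, 20.3, 7.96 and 6.79 CPM in WT (log2 change 36 h over 12 h -3.76 ± 0.54, adjusted p = 0.000544). It belongs to the list of immediate early and heat shock genes, of which 21 of 28 fell and none rose (75.0% lower), with a median of -1.90. That count was 10 to 12 without any 1 of 12 h replicates 1 or 4 or 36 h replicates 1, 2 or 3. The immediate early genes in it varied within groups. Dusp1, a MAP kinase phosphatase, had 1389, 1485, 1524 and 1179 CPM at 36 h, 4133, 1536, 1835 and 5289 CPM at 12 h and 2209, 5174, 1095 and 931 CPM in WT, and did not pass the test (log2 change -1.20 ± 0.49, adjusted p = 0.1). Its high libraries were 12 h replicates 1 and 4 and WT replicate 2, and the mRNA-decay factor Zfp36 had its highest values in the same 3. Zfp36 stood at 416, 261, 507 and 356 CPM at 36 h, 2682, 358, 677 and 2238 CPM at 12 h and 724, 2230.2, 245 and 225 CPM in WT (adjusted p 36 h against 12 h = 0.0687). Both passed the test without WT replicate 2 (adjusted p = 0.0368 for Dusp1 and 0.0287 for Zfp36), and Zfp36 also without 12 h replicate 2 (0.0352). Summed CPM of the p53 target list were also highest in these 3, at 3132 and 3050 in 12 h replicates 1 and 4 and 2768 in WT replicate 2. For the list of STAT3 signalling the sums were 7849, 8643 and 6561, again the highest. What sets these 3 libraries apart was not tested.

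At 12 h, Hsp90aa1, Hspe1 and Hsph1, chaperones of the immediate early and heat shock list, were not highest in the libraries where Dusp1 and Zfp36 were high. In WT, Hsp90aa1 was highest in the same library as Dusp1 and Zfp36, at 81.9 CPM. Other chaperones of the list were not followed library by library. Hsp90aa1, the inducible HSP90, had 46.7, 51.1, 44.2 and 44.4 CPM at 36 h, 136, 170.3, 162 and 141 CPM at 12 h and 58.5, 81.9, 53.5 and 53.3 CPM in WT (log2 change 36 h over 12 h -1.71 ± 0.14, adjusted p = 3.12e-05). The 36 h libraries were below every 12 h and every WT library (36 h over WT -0.41 ± 0.14, unadjusted p = 0.0106, not called). Hspd1 and Hspe1, the mitochondrial chaperonin pair HSP60 and HSP10, fell together. Hspe1 had 12.6, 13.9, 10.6 and 15.3 CPM at 36 h and 36.6, 42.9, 54.5 and 41.3 CPM at 12 h (log2 change -1.74 ± 0.17, adjusted p = 0.000112), and Hspd1 had a log2 change of -1.20 ± 0.13 (adjusted p = 0.000146). Hsph1, the HSP110 nucleotide exchange factor, had 17.7, 27.9, 15.6 and 17 CPM at 36 h and 63.3, 134, 90.5 and 92.6 CPM at 12 h (log2 change -2.28 ± 0.30, adjusted p = 0.000421). In Hspe1 and Hsph1 the times did not overlap.

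Windows of 3 genes that fell are printed to show the letters of a heat shock element or an E-box. The heat shock element was searched on both strands as 3 alternating repeats and was found in 0.603% of all windows and in 3 of 23 windows of the immediate early and heat shock list, those of Hsph1, Hspe1 and Hspd1. The E-box searched was CACGTG, which reads the same on both strands, the letters that Myc family proteins bind. It was found in 7.15% of all windows, 11.6% of those of tested genes and 5 of 23 ribosome biogenesis windows (21.7%). Several other lists held larger shares, among them p53 targets (6 of 16, 37.5%) and lysosome and endocytosis genes (8 of 23, 34.8%). Hsph1 lies at chr5:149636287-149636586 on the minus strand and holds 1 element. Hspe1 lies at chr1:55087898-55088197 on the plus strand and holds 2 that overlap each other. Mybbp1a, a nucleolar protein that binds Myb, lies at chr11:72441077-72441376 on the plus strand and holds 1 E-box. No match of another motif searched overlapped those printed.
Hsph1: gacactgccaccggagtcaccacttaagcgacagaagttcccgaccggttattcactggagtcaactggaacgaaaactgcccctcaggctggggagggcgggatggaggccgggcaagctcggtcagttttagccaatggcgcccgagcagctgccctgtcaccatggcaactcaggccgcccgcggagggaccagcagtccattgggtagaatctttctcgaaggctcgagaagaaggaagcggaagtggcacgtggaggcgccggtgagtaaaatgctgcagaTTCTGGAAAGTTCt
Hspe1: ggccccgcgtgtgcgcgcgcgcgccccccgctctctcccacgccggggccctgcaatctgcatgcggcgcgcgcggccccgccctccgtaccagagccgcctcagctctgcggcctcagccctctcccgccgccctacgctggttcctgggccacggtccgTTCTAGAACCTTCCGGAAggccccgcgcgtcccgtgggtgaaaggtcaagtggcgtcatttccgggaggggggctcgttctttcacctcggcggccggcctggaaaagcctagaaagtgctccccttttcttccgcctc
Mybbp1a: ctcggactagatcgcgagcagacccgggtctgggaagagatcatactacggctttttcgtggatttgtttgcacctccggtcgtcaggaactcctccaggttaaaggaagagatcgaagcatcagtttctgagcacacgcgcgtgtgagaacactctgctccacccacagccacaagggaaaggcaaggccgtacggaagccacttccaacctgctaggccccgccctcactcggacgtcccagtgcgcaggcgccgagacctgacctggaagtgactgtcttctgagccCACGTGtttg
Mybbp1a had 60.3, 72.4, 72.7 and 80.4 CPM at 36 h and 283, 198, 167 and 139 CPM at 12 h (log2 change -1.46 ± 0.19, adjusted p = 0.000398). The 36 h libraries lay below all 12 h libraries and overlapped the WT libraries (85.3, 84.4, 62.2 and 69 CPM).

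**Figure D3:**
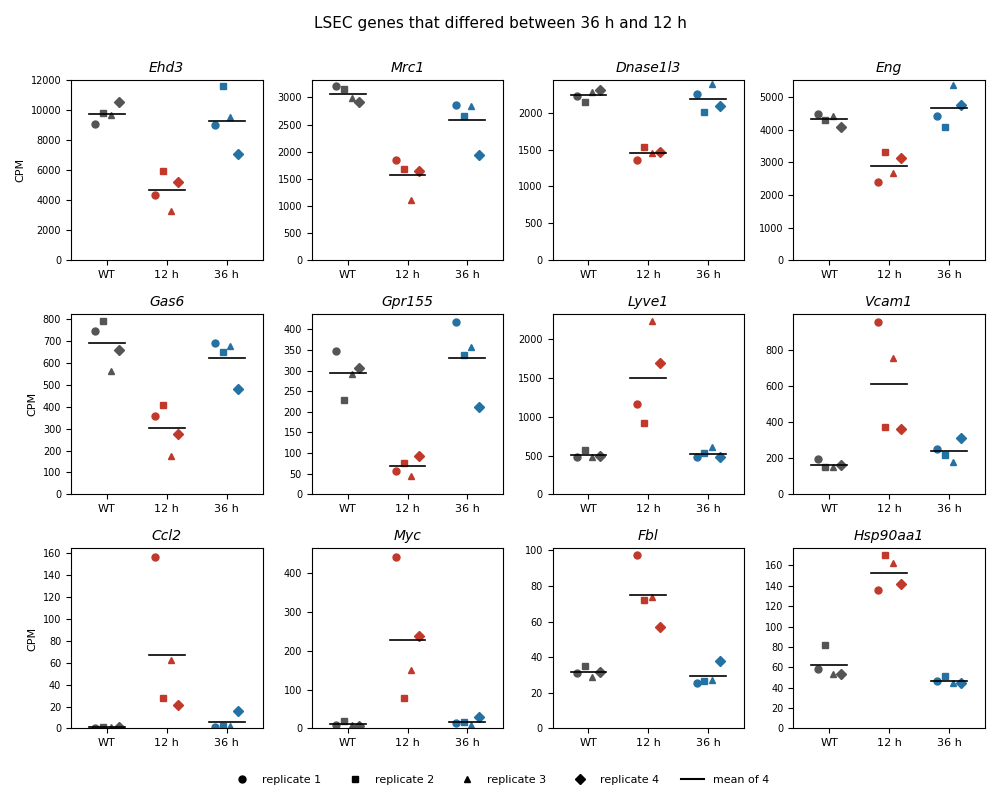
CPM (y axis, linear, from 0) of 12 genes in each LSEC library at WT, 12 h and 36 h, with the mean of 4 libraries as a bar. Ehd3, Mrc1, Dnase1l3, Eng, Gas6 and Gpr155 are higher at 36 h than at 12 h and Lyve1, Vcam1, Ccl2, Myc, Fbl and Hsp90aa1 lower, in each with no overlap between the times.

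Many genes of damage and stress responses fell too. Of 19 p53 targets 9 fell and 1 rose (47.4% lower). Their summed CPM were highest in 12 h replicates 1 and 4 and WT replicate 2, as given above. Bax, which permeabilises mitochondria in apoptosis, had 76.1, 82.5, 72.4 and 94.8 CPM at 36 h and 143, 169, 207 and 155 CPM at 12 h (log2 change -1.05 ± 0.12, adjusted p = 0.000198), and Cdkn1a, the cell cycle inhibitor p21, averaged 73.4 ± 28 CPM at 36 h and 244 ± 71.4 CPM at 12 h (log2 change -1.73 ± 0.31, adjusted p = 0.00212). In Bax the 36 h libraries lay below all 12 h libraries and overlapped the WT libraries (73.4, 80, 80 and 84.9 CPM). Sesn1, a stress-induced brake on mTORC1, was the member that rose (log2 change 0.79 ± 0.15, adjusted p = 0.00245). Of 23 genes of the integrated stress and ER stress responses 9 fell and 1 rose (39.1% lower). Asns, asparagine synthetase, had 1.59, 1.63, 1.86 and 3.09 CPM at 36 h and 16, 8.78, 9.86 and 8.22 CPM at 12 h (log2 change -2.39 ± 0.30, adjusted p = 0.000278), and its regulator Atf4 averaged 46.7 ± 8.74 CPM at 36 h and 101 ± 16.3 CPM at 12 h (log2 change -1.11 ± 0.17, adjusted p = 0.000933). Trib3, an inhibitory pseudokinase induced by Atf4 in many cells, was the member that rose (log2 change 1.22 ± 0.21, adjusted p = 0.00171).

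Of 31 proteasome core and cap genes 12 fell and none rose (38.7% lower), but 3, 6 and 7 fell without 36 h replicate 3, 36 h replicate 1 and 12 h replicate 3. Of 36 genes of oxidative phosphorylation 4 fell and none rose, with 2 to 9 as single libraries were left out, 9 being the number without 36 h replicate 4 and 2 that without any 1 of the 12 h replicates 3 or 4 or 36 h replicates 1, 2 or 3. The share of 4 in 36 lies near the background of 10.8%. Of 36 cell cycle and DNA replication genes 7 rose and 1 fell (19.4% and 2.78%). At 36 h against WT, 25 of the 36 had an unadjusted p under 0.05 in edgeR (10.5% of all genes), with a median log2 change of 1.03. In 2 of them all 36 h libraries lay above all WT libraries (3.74% of all genes). edgeR called 0 of the list against WT, and DESeq2 called 4 higher, among them Tk1. Tk1, thymidine kinase of S phase, had 7.31, 15.5, 7.92 and 30.3 CPM at 36 h and 4.5, 5.27, 2.14 and 3.04 CPM at 12 h (log2 change 2.03 ± 0.49, adjusted p = 0.0101), with 1.96, 8.07, 5.01 and 4.98 CPM in WT. Top2a, the mitotic topoisomerase, had 19, 36.2, 20.1 and 33.3 CPM at 36 h and 16.8, 11.4, 7.07 and 10.6 CPM at 12 h (log2 change 1.24 ± 0.36, adjusted p = 0.0271). Its 36 h libraries were all above its 12 h libraries, and it kept no call without 12 h replicate 2, 3 or 4 or 36 h replicate 2 or 4 (adjusted p = 0.0514, 0.0723, 0.0646, 0.0735 and 0.0604). The number of rises was 1 without 12 h replicate 3, 2 without 12 h replicate 4 or 36 h replicate 4, 3 without 36 h replicate 2 and 4 without WT replicate 4. With 36 h replicate 4 and 12 h replicate 3 both left out it was 0 and the adjusted p of Tk1 was 0.0682. Mki67, the proliferation marker, had 3.38, 3.18, 4.3 and 5.32 CPM at 36 h and 7.08, 7.65, 1.96 and 2.45 CPM at 12 h (adjusted p = 0.711).

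Many interferon-type genes lay above WT by value at 36 h. Of 16 guanylate-binding proteins and immunity-related GTPases (GBPs and IRGs), which attack pathogen vacuoles, 2 rose and none fell, with a median log2 change of 0.45. Of 18 genes of MHC class I and the immunoproteasome, which present peptides to CD8+ T cells, 2 rose and none fell, with a median of 0.13. These shares of rises (12.5% and 11.1%) lie near the 10.6% of all genes. Set against WT, 9 of the 16 and 13 of the 18 had all 36 h libraries above all WT libraries, beside 3.74% of all genes tested. edgeR called 0 of either list at 36 h against WT, with 15 of 16 and 13 of 18 at an unadjusted p under 0.05 (10.5% of all genes) and medians of 1.19 and 0.49. DESeq2 called 6 of the GTPases (Gbp2, Gbp3, Gbp5, Gbp8, Gbp10 and Tgtp1) and 5 of the class I list (H2-D1, H2-K1, H2-Q4, Psmb9 and Tap1) higher at 36 h than in WT. Genes of both families share long stretches with near-identical relatives, so reads could have been split among them. The counts of rises against 12 h moved as libraries were left out. The number of GTPases that rose was 7 without both 12 h replicate 3 and 36 h replicate 4, 4 without 12 h replicate 3 and 1 without any 1 of the other 12 h, the WT or 36 h replicates 1 and 3, and the class I number was 5 without 12 h replicate 3 and 1 without any 1 of 12 h replicates 1, 2 or 4 or 36 h replicates 1 or 3.

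Irgm1, a regulator of autophagy and of the other IRGs, had 479, 272, 710.3 and 367 CPM at 36 h and 358, 223, 657 and 402 CPM at 12 h (log2 change 0.16 ± 0.32, adjusted p = 0.765). The times overlapped, with replicate 3 the highest at both, and only 36 h replicate 2 did not exceed every WT library (165, 184, 272 and 209 CPM, log2 change 36 h over WT 1.14 ± 0.32, unadjusted p = 0.00322). Gbp2 had 157, 130.4, 226 and 113 CPM at 36 h, 99.6, 76.2, 142 and 65.3 CPM at 12 h and 86.3, 88.2, 88.9 and 90.6 CPM in WT. Its log2 change 36 h over 12 h was 0.71 ± 0.23 (adjusted p = 0.0428) and 36 h over WT 0.82 ± 0.23 (unadjusted p = 0.00332). All 36 h libraries exceeded all WT libraries and overlapped the 12 h libraries. The adjusted p of Gbp2 between the times rose above 0.05 without any 1 of 12 h replicates 1, 2 or 4 (0.0772, 0.101 and 0.114), of 36 h replicates 1 or 3 (0.0876 and 0.15) or of the WT libraries (0.0535 to 0.0647). Cd274, the T cell inhibitory ligand PD-L1, had 152, 51.4, 178 and 79.3 CPM at 36 h, 123, 60.3, 304 and 107 CPM at 12 h and 33.5, 41, 54.2 and 51.2 CPM in WT. Replicate 3 was the highest at both times, and 36 h replicate 2 was the only 36 h library below a WT library.

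H2-K1, a classical class I heavy chain, had 3105, 2359, 2876 and 3632 CPM at 36 h, 2886, 2868, 3355 and 2474 CPM at 12 h and 1894, 2050.0, 2025 and 2017 CPM in WT. All 36 h libraries exceeded all WT libraries, and the times overlapped (36 h over 12 h 0.048 ± 0.13, adjusted p = 0.83, and 36 h over WT 0.58 ± 0.13, unadjusted p = 0.000563). H2-D1 had 2931, 2568, 2801 and 3341 CPM at 36 h, 2443, 2312, 2634 and 2055 CPM at 12 h and 1984, 2058, 2188 and 2097 CPM in WT (36 h over 12 h 0.30 ± 0.11, adjusted p = 0.0603, and 36 h over WT 0.48 ± 0.11, unadjusted p = 0.000538). It too had every 36 h library above every WT library. Without 12 h replicate 3 the log2 change of H2-D1 between the times passed the test (adjusted p = 0.0408), and likewise without 36 h replicate 2 (0.0476). Tapbp, tapasin, which loads peptides onto class I, averaged 1489.8 ± 255 CPM at 36 h, 1199.9 ± 375 CPM at 12 h and 971 ± 73.2 CPM in WT (36 h over WT 0.62 ± 0.18, unadjusted p = 0.00449). Its 36 h libraries exceeded all WT libraries. The highest 12 h library was replicate 3, and without it the difference between the times passed the test (adjusted p = 0.0114). Psmb9, an inducible proteasome subunit, had 152, 106, 201 and 141 CPM at 36 h and 70.3, 74.2, 132 and 90.7 CPM at 12 h (log2 change 0.71 ± 0.21, adjusted p = 0.0268), against 74.2, 80.3, 92.8 and 86.6 CPM in WT. That call was lost without any 1 of 12 h replicates 1, 2 or 4 or 36 h replicates 1 or 3 (adjusted p 0.0572 to 0.0925).

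Of 29 antiviral interferon-stimulated genes tested 2 fell (6.9%, against 10.8% of all genes) and none rose, with a median log2 change 36 h over 12 h of -0.38 and 36 h over WT of 0.39. Without 12 h replicate 2, 8 fell. Without any 1 of 12 h replicate 3, 36 h replicates 2 or 3 or WT replicates 3 or 4, 0 fell, and without 12 h replicates 1 or 4, 36 h replicate 1 or WT replicate 1, 1 fell. Cxcl9, a ligand of the T cell receptor CXCR3, had 296, 164, 351 and 319.9 CPM at 36 h, 248, 145, 811 and 186 CPM at 12 h and 110.0, 153, 178 and 121 CPM in WT (36 h over 12 h adjusted p = 0.671). Cxcl10, of the same receptor, had 184, 56.1, 229 and 162 CPM at 36 h and 858, 131, 593 and 185 CPM at 12 h (log2 change -1.49 ± 0.53, adjusted p = 0.0587), and 52.1, 85.6, 55.6 and 51.3 CPM in WT. The call for Cxcl10 appeared without 12 h replicate 2 (adjusted p = 0.0189) or 4 (0.0369). Replicate 2 was the lowest 36 h and 12 h library for both.

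**Figure D4:**
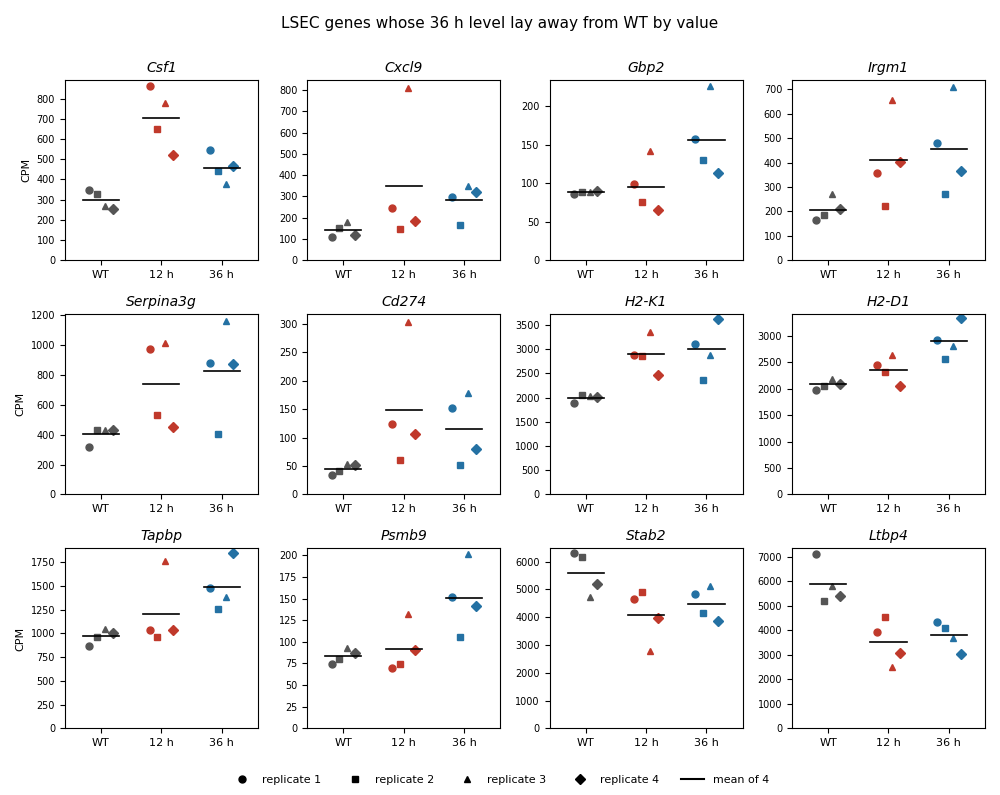
CPM (y axis, linear, from 0) of 12 genes in each LSEC library at WT, 12 h and 36 h, with the mean of 4 libraries as a bar. H2-K1, H2-D1, Tapbp, Psmb9, Gbp2 and Csf1 have all 36 h libraries above all WT libraries, Ltbp4 has them all below, and edgeR called none of the 12 at 36 h against WT.

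Windows of 3 GTPase genes are printed because 9 of 10 windows of that list (90.0%) hold the interferon-stimulated response element (ISRE), searched on both strands with 2 free positions between its 2 equal arms. The capitals mark it. It was found in 3.44% of all windows, 3.83% of those of tested genes, 11 of 21 windows of the antiviral list (52.4%) and 5 of 15 of the class I list (33.3%). Its matches and those of the NF-kB motif overlap in 3 of the 32851 windows, none of them printed here. Gbp2 lies at chr3:142620413-142620712 on the plus strand with 1 match. Irgm1 lies at chr11:48871371-48871670 on the minus strand with 2 that overlap each other. Irgm2 lies at chr11:58214727-58215026 on the plus strand with 1.
Gbp2: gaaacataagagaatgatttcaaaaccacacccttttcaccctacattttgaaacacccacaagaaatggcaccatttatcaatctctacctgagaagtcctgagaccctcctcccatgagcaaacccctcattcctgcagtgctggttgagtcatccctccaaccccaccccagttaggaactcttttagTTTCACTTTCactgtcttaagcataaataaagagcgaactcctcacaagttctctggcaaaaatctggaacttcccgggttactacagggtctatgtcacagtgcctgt
Irgm1: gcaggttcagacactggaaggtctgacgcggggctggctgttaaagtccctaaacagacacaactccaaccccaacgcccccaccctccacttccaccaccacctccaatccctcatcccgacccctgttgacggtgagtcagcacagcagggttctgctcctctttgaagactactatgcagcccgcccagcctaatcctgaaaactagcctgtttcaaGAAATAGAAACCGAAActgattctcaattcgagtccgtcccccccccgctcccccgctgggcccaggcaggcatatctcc
Irgm2: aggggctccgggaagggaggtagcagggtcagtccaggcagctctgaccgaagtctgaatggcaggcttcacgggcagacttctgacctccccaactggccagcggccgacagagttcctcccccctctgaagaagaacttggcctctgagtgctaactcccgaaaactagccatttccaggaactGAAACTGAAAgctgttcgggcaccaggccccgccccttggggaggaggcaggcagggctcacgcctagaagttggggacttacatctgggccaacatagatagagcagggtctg
Irgm2 itself had 586, 258, 873 and 279 CPM at 36 h, 233, 173, 414 and 299 CPM at 12 h and 144, 206, 258 and 207 CPM in WT (36 h over 12 h 0.84 ± 0.36, adjusted p = 0.117, and 36 h over WT 1.29 ± 0.37, unadjusted p = 0.00335). Replicates 1 and 3 were its high 36 h libraries, and all 4 exceeded the highest WT library, replicate 2 by the least.

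Many acute phase genes lay above WT by value at 36 h, and Saa1 was highest where the hepatocyte marker Alb was highest. Of 28 tested 2 rose and 5 fell between the times, where 10.6% and 10.8% of all genes did. All 36 h libraries lay above all WT libraries in 9 of the 28 (3.74% of all genes), 20 had an unadjusted p under 0.05 against WT (10.5% of all genes), and the median log2 change over WT was 1.67. edgeR called none of them against WT, and DESeq2 called 10 higher, among them Saa1, Saa2, Orm2 and Serpina3g. Saa1, serum amyloid A, chosen after its values were seen and close in sequence to its neighbour Saa2, had 6.19, 6.99, 20.2 and 40.7 CPM at 36 h, 0.206, 1.09, 14.9 and 9.15 CPM at 12 h and 0.0701, 0.0381, 0 and 0.213 CPM in WT. Alb, the hepatocyte marker, had 29.4, 35.2, 131 and 201 CPM at 36 h, 69.3, 89, 69.1 and 41.9 CPM at 12 h and 92, 22.8, 109.7 and 71.7 CPM in WT. Saa1 was highest in 36 h replicates 3 and 4, the same libraries in which Alb was highest. The 36 h replicates 1 and 2 held more Saa1 than any WT library and less Alb than 3 of the 4 WT libraries. The part of hepatocyte RNA in the Saa1 level was not tested. Serpina3g, a serine protease inhibitor, averaged 828 ± 316 CPM at 36 h, 741 ± 294 CPM at 12 h and 401 ± 56.7 CPM in WT (36 h over WT 1.05 ± 0.31, unadjusted p = 0.00432). Mt2, a metallothionein, fell (36 h over 12 h -1.52 ± 0.27, adjusted p = 0.00199).

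Several basement membrane and protease genes fell. Of 20 matrix genes 8 fell and 2 rose (40.0% lower, against 10.8% of all genes), and of 21 genes of fenestration and capillarisation 6 fell and none rose (28.6% lower). Col4a1 and Col4a2, the chains of collagen IV, fell with log2 changes of -1.05 ± 0.19 and -1.36 ± 0.25 (adjusted p = 0.00192 and 0.00238). Col4a2 had 669, 535, 946 and 1513 CPM at 36 h and 2595, 2503, 2232 and 2056 CPM at 12 h, and 36 h replicate 4 was its highest 36 h library, as it was for the stellate cell markers. Lamc1, a laminin chain, had 121, 112, 137 and 153 CPM at 36 h and 281, 249, 279 and 260.1 CPM at 12 h (log2 change -1.03 ± 0.12, adjusted p = 0.000178). In both genes the times did not overlap. Adamts1, a protease of proteoglycans, had 179, 168, 117 and 187 CPM at 36 h and 1297, 393, 579 and 1032 CPM at 12 h (log2 change -2.34 ± 0.38, adjusted p = 0.00113).

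Of 19 coagulation and fibrinolysis genes 6 fell and none rose (31.6% lower). Plaur, the urokinase receptor, had 11, 9.66, 8.46 and 13.9 CPM at 36 h and 75.7, 40.4, 35.7 and 32.6 CPM at 12 h, with no overlap (log2 change -2.10 ± 0.30, adjusted p = 0.000544). Thbd, thrombomodulin, which turns thrombin to an anticoagulant, averaged 154 ± 12.1 CPM at 36 h and 369 ± 168 CPM at 12 h (log2 change -1.26 ± 0.32, adjusted p = 0.0145), and its adjusted p was 0.0503 without 12 h replicate 1. F8, clotting factor VIII, of which LSECs are a main source, did not pass the test (log2 change 0.26 ± 0.21, adjusted p = 0.41). Among vascular receptors, Kdr (VEGFR2) had 6063, 5099.6, 5693 and 4693 CPM at 36 h, 4654, 4639.6, 3261 and 4355 CPM at 12 h and 7015, 6619.7, 5569 and 5999.7 CPM in WT (36 h over 12 h 0.35 ± 0.13, adjusted p = 0.0745), its 36 h libraries lying above all 12 h libraries. Nos3, endothelial nitric oxide synthase, gave -0.35 ± 0.13 (adjusted p = 0.0776). It passed the test without WT replicate 3 (adjusted p = 0.0479).

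In iron and lipid handling 2 of 19 iron genes rose and 4 fell (10.5% and 21.1%), and 1 of 22 LXR and lipid genes rose and 3 fell (4.55% and 13.6%). The share of iron genes that rose lies near the 10.6% of all genes. Hmox1, heme oxygenase-1, which opens heme to free its iron, had 79.7, 72.8, 62.3 and 77.4 CPM at 36 h and 216, 263, 140.3 and 197 CPM at 12 h, with no overlap, and 92.4, 69, 58.4 and 68.4 CPM in WT (log2 change 36 h over 12 h -1.48 ± 0.18, adjusted p = 0.000261). Hfe, the hemochromatosis protein, rose, with 308, 276, 321 and 289 CPM at 36 h and 131, 179.6, 152 and 184 CPM at 12 h (log2 change 0.88 ± 0.12, adjusted p = 0.000392). Ftl1, the ferritin light chain, fell (-0.63 ± 0.14, adjusted p = 0.00667). Pparg, a lipid-sensing nuclear receptor, had 4.94, 7.3, 4.91 and 6.21 CPM at 36 h and 23.8, 23.3, 49 and 22.4 CPM at 12 h (log2 change -2.34 ± 0.27, adjusted p = 0.000178), and 12 h replicate 3 was high. Apoe, apolipoprotein E, averaged 5942 ± 1428 CPM at 36 h and 3580.0 ± 792 CPM at 12 h (log2 change 0.73 ± 0.19, adjusted p = 0.0156). Of 30 lysosome and endocytosis genes 6 rose and 3 fell (20% and 10%). Among the falls were Cd63, a tetraspanin of late endosomes, with 20, 27.7, 19.9 and 31.4 CPM at 36 h and 62.5, 88.9, 127 and 78.6 CPM at 12 h (log2 change -1.85 ± 0.22, adjusted p = 0.000222), and Ctsb, cathepsin B (-0.47 ± 0.11, adjusted p = 0.01). Ctsb at 36 h (3346, 3681, 3115 and 3811 CPM) still lay above every WT library (2681, 2798, 2690.0 and 2655 CPM, log2 change 0.37 ± 0.11, unadjusted p = 0.00605, not called).

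The remaining lists held few calls or went both ways. Of 23 cytokines and receptors 4 fell and none rose (17.4% lower), 2 without 36 h replicate 3. They include Tnf, tumour necrosis factor, with 1.29, 0.45, 0.88 and 1.82 CPM at 36 h and 36.7, 2.22, 5.93 and 7.21 CPM at 12 h (log2 change -3.55 ± 0.96, adjusted p = 0.0189), whose adjusted p was 0.101 without 12 h replicate 1, 0.0519 without 36 h replicate 2 and 0.0558 without 36 h replicate 3. All 36 h values lay below all 12 h values, and the highest of all was 12 h replicate 1. Of 18 TNF superfamily members 5 fell and 1 rose (27.8% and 5.56%), 3 falling without 36 h replicate 3. Tnfrsf12a, the receptor of TWEAK, had 1.52, 1.8, 0.914 and 2.38 CPM at 36 h and 11.3, 10.2, 11.2 and 8.69 CPM at 12 h, without overlap (log2 change -2.65 ± 0.26, adjusted p = 0.000112), and its ligand Tnfsf12 was the member that rose (0.65 ± 0.13, adjusted p = 0.0042). Of 14 genes of Toll-like receptor sensing 3 fell (21.4%), namely Cd14, the receptor Tlr4 (-0.43 ± 0.11, adjusted p = 0.0181) and its partner Ly96 (-0.38 ± 0.11, adjusted p = 0.0205). Ly96 lost its call without 12 h replicate 3 (0.0541) or 36 h replicate 3 (0.07), and Tlr4 when 12 h replicate 3 and 36 h replicate 4 were both left out (0.0854).

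Of 24 semaphorins, ephrins and other guidance genes 4 rose and 6 fell (16.7% and 25%). The rises numbered 2 without any 1 of 12 h replicate 1 or 36 h replicates 1 or 3. Efnb2, the arterial ligand ephrin-B2, rose (log2 change 0.43 ± 0.13, adjusted p = 0.0303) but lost its call without any 1 of 12 h replicates 1 or 2 or 36 h replicates 1 or 3. Of 18 VEGF and angiopoietin genes 1 rose and 2 fell (5.56% and 11.1%), and of 19 genes of vascular tone 2 rose and 2 fell (10.5% each). Of 12 MHC class II genes 1 rose and 1 fell (8.33% each). None of these shares lies far above the 10.6% and 10.8% of all genes. Apln, apelin, a peptide of sprouting endothelium, had 0.0677, 0.381, 0.542 and 1.9 CPM at 36 h and 2.3, 1.85, 12.9 and 4.83 CPM at 12 h (log2 change -2.93 ± 0.80, adjusted p = 0.0192), and its adjusted p was 0.0784 without 12 h replicate 3, 0.0527 without 36 h replicate 2 and 0.0571 without 36 h replicate 3. Of 18 circadian clock genes 3 rose and 1 fell (16.7% and 5.56%). Per3, of the negative arm of the clock, had 6.97, 4.43, 2.13 and 3.9 CPM at 36 h and 1.99, 1.51, 0.552 and 0.935 CPM at 12 h (log2 change 1.80 ± 0.42, adjusted p = 0.00864). The hour of day at which tissue was taken is not given in the sources used here. Of 24 genes of sterol synthesis 2 rose and 1 fell (8.33% and 4.17%).

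The change between the times was set against the same change in HSCs in 1 fit of both cell types. Of 13456 genes tested, the LSEC change was more positive than the HSC change in 193 (1.43%) and more negative in 183 (1.36%), 2.79% in all. The first count was 114 to 126 without any 1 of HSC 36 h replicates 1, 2 or 3, and the second 118 without HSC 36 h replicate 2. DESeq2 gave 298 and 377. Levels in this paragraph and the next are CPM on the scale of that fit. Gbp2 had 152, 128, 219.9 and 109.7 CPM at 36 h and 94.8, 73.7, 135 and 63.1 CPM at 12 h in LSECs, against 251, 138, 333 and 286 CPM at 36 h and 1299, 950.2, 1050.1 and 719 CPM at 12 h in HSCs. The LSEC minus HSC difference in log2 change was 2.73 ± 0.36 (adjusted p = 0.000115), with every 36 h library below every 12 h library in HSCs. Sod2 had 53.6, 44.8, 45.4 and 51.8 CPM at 36 h and 78.7, 65.4, 77.5 and 63.5 CPM at 12 h in LSECs, against 90.1, 83.7, 96.3 and 114 CPM at 36 h and 676, 441, 778 and 353 CPM at 12 h in HSCs. It fell in both, by more in HSCs (difference 2.01 ± 0.24, adjusted p = 5.77e-05). The oncostatin M receptor Osmr had 228, 197, 243 and 157 CPM at 36 h and 189.6, 128, 139.7 and 122 CPM at 12 h in LSECs, against 74.9, 57.1, 64.5 and 92.4 CPM at 36 h and 280.1, 181, 262 and 160.1 CPM at 12 h in HSCs (difference 2.12 ± 0.28, adjusted p = 0.000111). Its change within LSECs stood at the threshold (adjusted p = 0.05) and passed it without WT replicate 1, 12 h replicate 1 or 36 h replicate 4 (0.0475, 0.0135 and 0.022). Slc7a5, a transporter of large neutral amino acids, changed by log2 -3.14 in HSCs and differed from LSECs by 3.11 ± 0.53 (adjusted p = 0.00173).

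Adamts1, Cd14 and Cdh4 fell in LSECs and had higher mean levels at 36 h than at 12 h in HSCs. Adamts1 had 172, 165, 114 and 181 CPM at 36 h and 1235, 380.0, 551 and 996 CPM at 12 h in LSECs, against 1323, 1369, 1017 and 1095 CPM at 36 h and 1119, 729.7, 759 and 775 CPM at 12 h in HSCs, a difference of -2.83 ± 0.43 (adjusted p = 0.00059). The fall was seen in LSECs, and the HSC change did not pass the test (log2 0.51, adjusted p = 0.229). Cd14, the co-receptor for lipopolysaccharide, had 5.75, 6.57, 5.4 and 6.61 CPM at 36 h and 26.6, 10.7, 41.8 and 29.5 CPM at 12 h in LSECs, against 3.58, 4.72, 3.63 and 3 CPM at 36 h and 1.41, 1.85, 3.9 and 3.38 CPM at 12 h in HSCs (difference -2.66 ± 0.47, adjusted p = 0.00225). Cdh4, R-cadherin, had 33.2, 37.6, 39.9 and 40 CPM at 36 h and 52.4, 77.7, 81.1 and 108 CPM at 12 h in LSECs, against 37.1, 26.6, 23.6 and 14.8 CPM at 36 h and 6.21, 7.93, 3.71 and 5.22 CPM at 12 h in HSCs. It fell in LSECs and rose in HSCs (difference -3.22 ± 0.35, adjusted p = 1.74e-05), and the times overlapped in neither cell type. Cd63 and Thbd fell in LSECs, and their HSC changes did not pass the test (differences -1.51 ± 0.27 and -1.94 ± 0.42, adjusted p = 0.00232 and 0.013). Mt2 fell in both cell types, by log2 -3.62 in HSCs and by less in LSECs (difference 2.11 ± 0.38, adjusted p = 0.00278). Fas and Cxcl16 fell in HSCs (log2 -2.06 and -1.56) and did not pass the test in LSECs (adjusted p = 0.246 and 0.295), with differences of 2.30 ± 0.35 and 1.42 ± 0.23 (adjusted p = 0.000493 and 0.000789).

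**Figure D5:**
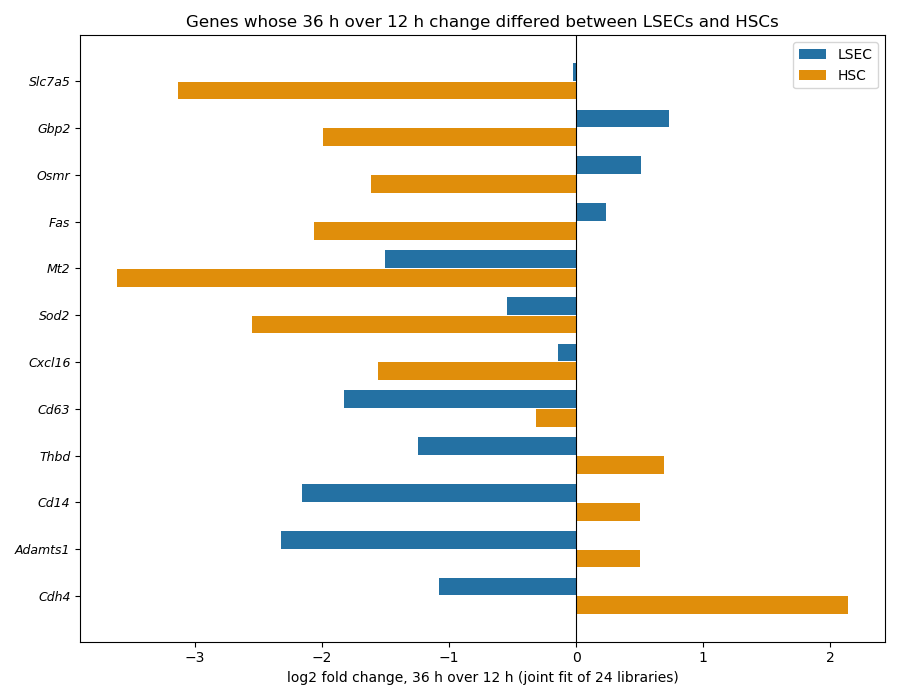
Log2 change 36 h over 12 h (x axis) of 12 genes whose change differed between the cell types, in LSECs (upper bar of each pair) and HSCs (lower bar), from the fit of both. Slc7a5, Gbp2, Osmr, Fas, Mt2, Sod2 and Cxcl16 have the more negative bar in HSCs, and Cd63, Thbd, Cd14, Adamts1 and Cdh4 in LSECs, and errors of the differences stand in the text.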

How the data were processed

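The authors deposited raw read counts per gene for each library. Per the submitters' processing notes, the reads were handled with FastQC 0.11.4, Trimmomatic 0.35, TopHat2 2.1.0 and SAMtools 0.1.18 on mm10. For the counting tool, its annotation and its strand setting, each was not given in the sources used here, so overlapping and antisense genes may share reads. Lines that name no gene held 6.24% to 8.55% of each library's reads and were left out of library sizes and tests. Groups were taken from the labels.

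The 12 LSEC libraries were fitted together with edgeR 4.0.16 (quasi-likelihood test, TMM scaling) in R 4.3.3, after a filter on low counts (filterByExpr, minimum count 10, minimum total 15). P-values were adjusted by Benjamini-Hochberg over all genes tested, with a threshold of 0.05. Sharing 1 estimate of spread over the 3 groups, the fit gave 36 h over 12 h, 36 h over WT and 12 h over WT. A second fit over 24 libraries of LSECs and HSCs tested whether the 36 h over 12 h change differed between the cell types. Values are CPM on TMM-scaled library sizes, errors of log2 changes are standard errors and those of means are SDs over 4 libraries. The precision is set by 25404719 to 30090527 gene counts per library and by 4 libraries per group. The scripts were tested on simulated data in which 200 genes changed, fewer than were called in the real data. Between 36 h and 12 h, 29.9% of 1.5-fold, 65.6% of 2-fold and 90.9% of 4-fold changes were recovered. For the difference from HSCs the shares were 9.09%, 47.7% and 84.6%. Unchanged genes made up 1.61% and 2.13% of the calls. A gene that did not pass a test is therefore not shown to be unchanged.

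Members and gene lists were chosen with earlier results of these data known. Lists are described by counts and medians beside the same over all genes. Genes were named by a rule: the 12 largest rises and falls without overlap between the times at a mean of at least 5 CPM, up to 6 called and 4 other members per list, the largest differences from HSCs, and a set of niche and adhesion genes. Saa1, Saa2 and Orm2 were added after their values were seen. DESeq2 1.42.0, another scaling, no filter, a replicate block, the 2 groups alone and each library left out were tried as alternatives. Promoter windows came from RefSeq (GRCm38.p6), and the E-box and heat shock motifs were added after the data had been seen. No pair of replicates held identical counts. Hepatocyte libraries of the series were not used here.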

Additional observations from a re-analysis of the deposited data

Results flagged for a closer look

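Among 420 groups of 4 LSEC libraries (140 genes in 3 groups), 33 held a flagged library (7.86%). Its gap to the nearest other took more of the group's range than Dixon's critical value allows. That value is set for about 1 in 20 groups of independent, normally distributed values. These are CPM on a linear scale, of genes chosen on these data and measured in the same libraries, so 7.86% cannot be set against that rate. In 36 h replicate 4 the high values were 0.706 CPM for Prf1, 2.08 CPM for Uchl1, 9.63 CPM for Sele, 2.27 CPM for Timp1, 16 CPM for Ccl2, 38 CPM for Fbl and 227 CPM for Notch4. In 36 h replicate 4 the low value was 311 CPM for Prelp. In 12 h replicate 1 the high values were 17 CPM for Cxcl2, 141 CPM for Sele, 68.5 CPM for Selp, 239 CPM for Tnfaip3 and 36.7 CPM for Tnf. In 12 h replicate 3 the high values were 77.3 CPM for Tnfrsf9, 22.6 CPM for Timp1, 811 CPM for Cxcl9, 1760.0 CPM for Tapbp and 49 CPM for Pparg. In WT replicate 1 the high values were 163 CPM for Cdkn1c and 0.982 CPM for Olr1. In WT replicate 1 the low values were 51.4 CPM for Sod2, 316 CPM for Serpina3g and 146 CPM for Ackr2. In WT replicate 2 the high values were 1.22 CPM for Cxcl2, 0.495 CPM for Prf1, 9.6 CPM for Cxcl1, 574 CPM for Lyve1, 85.6 CPM for Cxcl10, 134 CPM for Cdkn1a, 357 CPM for Il4ra and 3.2 CPM for Pdgfa. In WT replicate 3 the high value was 0.0982 CPM for Saa2. In WT replicate 3 the low value was 273 CPM for Wnt2.

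The log2 change 36 h over 12 h differed between LSECs and HSCs in 29 of the named genes by the test of that difference in the fit of both cell types (adjusted p under 0.05). The LSEC minus HSC difference was positive for Klhdc8a (6.25), Trib3 (4.53), Chst8 (3.94), Slc7a5 (3.11), Ccbe1 (2.86), Gbp2 (2.73), Fas (2.30), Osmr (2.12), Mt2 (2.11), Gna14 (2.05), Sod2 (2.01), Serpina3g (1.81), Gpr155 (1.48), Cxcl16 (1.42), Ecm1 (1.27), Prelp (1.24) and Nfkb1 (1.08), and negative for Cdh4 (-3.22), Adamts1 (-2.83), Cd14 (-2.66), Myc (-2.65), Thbd (-1.94), Cd63 (-1.51), Pdgfa (-1.42), Lamc1 (-1.14), Icam2 (-1.01), Ctsb (-0.98), Il1r1 (-0.83) and Tlr4 (-0.60). Among them the calls of Chst8, Icam2, Il1r1, Myc, Pdgfa, Serpina3g, Tlr4, Trib3 and Ecm1 were lost under 1 or more alternatives.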

How the results depend on the processing

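Between 36 h and 12 h the counts of genes that rose or fell stayed within 1.5 times of 1299 and 1324 under DESeq2, another scaling, no filter on low counts, the replicate block, the 2 groups alone and the removal of 12 h replicate 3 with 36 h replicate 4. As each library was left out the rises ranged from 926 to 1270 and the falls from 858, without 36 h replicate 3, to 1355. Of 102 genes named in the text and called between the times, 84 kept the call under every alternative, and 26 others passed under none. None of the 140 had opposite signs in the main fit and an alternative with a call in either. Sign changes of genes without a call were not counted. The log2 change of the median gene moved by less than 0.1 under every scaling.

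Calls between 36 h and WT depended on the tool. DESeq2 gave 87 higher and 22 lower genes, the replicate block 5 higher (Saa1, Saa2, Orm2, Pla2g16 and Tgtp1), the fit of 2 groups alone 2 higher (Saa1 and Saa2) and the removal of 12 h replicate 3 with 36 h replicate 4 gave 1 higher, against 0 by edgeR. Leaving out single libraries gave 0 to 1 higher (Pla2g16, without 36 h replicate 4) and 0 to 1 lower (Stox2, without 36 h replicate 1). Pla2g16, Stox2 and Tgtp1 are named here after their calls were seen. Between 12 h and WT the ranges were 868 to 1397 higher and 671 to 1114 lower. For the difference between cell types they were 114 to 212 and 118 to 202, DESeq2 gave 298 and 377, and of 29 named genes that differed 20 kept the call under every alternative. In each case the cause was not tested.

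With the replicate number as a block, 1224 genes rose and 1231 fell between the times. The numbers do not pair the libraries: same-numbered 36 h and 12 h libraries deviated together with correlations of -0.198 to 0.167, and 1 of 4 correlated best with its own number.

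With 4 libraries a group, a change smaller than the spread between libraries cannot be seen, and genes of a few CPM, such as Cxcl2 or Spic, rest on few reads.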
